A study of Mus musculus with 8 samples.

Results

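F4/80-high tumour-associated macrophages (F4/80-high TAM) were set against macrophages of the healthy colon wall, the tissue in which the tumours grew. The comparison rested on 4 of the 8 arrays of the series, 2 of F4/80-high TAM and 2 of steady-state colon macrophages, chosen by their titles, and on the 24692 of 35556 probe sets that carried a gene name. These probe sets gave 21442 genes. F4/80-high TAM were sorted from orthotopic colorectal tumours, and both arrays were labelled male. Colon macrophages were sorted from the lamina propria, the connective tissue under the gut epithelium, with replicate 1 labelled male and replicate 2 female. The other 4 arrays held Ly6C-high tumour-infiltrating cells from the same kind of tumour (Ly6C-high TAM, both male) and Ly6C-high monocytes from spleen (replicate 1 male, replicate 2 mixed), and served to estimate the spread and to place single genes. All mice were C57BL/6 with the genotype Cx3cr1gfp/+, so 1 allele of the fractalkine receptor gene Cx3cr1 carried a green fluorescent reporter in every group, and no treatment was labelled. Tissue was digested with Collagenase VIII and stained with antibodies before sorting. The tumour line and the ages of the mice were not given in the sources used here. For the tumour populations the labels do not say whether the replicates came from separate animals, so the p-values measure only the spread between these samples.

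Colon macrophages are replaced throughout life by blood monocytes and mature in the lamina propria, where they take up bacteria and dying cells and release interleukin 10 without a strong inflammatory response. Tumour macrophages arise largely from the same monocytes and are known for arginine breakdown, glycolysis, tissue remodelling and responses to interferon. The gut epithelium lies against the lamina propria, and its main cells are absorptive colonocytes, mucus-producing goblet cells, hormone-producing enteroendocrine cells and chemosensory tuft cells. In a bulk sample, fewer cells of a type and less RNA per cell cannot be told apart.

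A gene was called when its limma adjusted p was 0.05 or less and its fold was 2 or more. By this rule 573 genes were higher in F4/80-high TAM, or 2.67% of the genes tested, and 797 were lower, or 3.72%. The median log2 difference over all genes was 0.05. Centring every array on its median moved the median of all genes by 0.137 and turned the balance of the calls round, with 811 higher and 637 lower genes. Higher genes made up 56.0% of the calls after that centring, against 41.8% in the values as deposited. Both F4/80-high TAM arrays lay above both colon arrays for 32.7% of the genes and below both for 18.1%.

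The lower genes were separated into 4 classes. The first held 108 genes from 7 lists of gut epithelial genes. The second held 303 genes whose replicate differences followed those of the epithelial lists, as described below, and it is called the tracking class. The third held 180 genes that sat at 1 level in F4/80-high TAM, Ly6C-high TAM and spleen monocytes and were raised only in colon, with the second colon array higher than the first as for the epithelial genes. The fourth held the remaining 206 genes. The median log2 difference was -2.77 in the epithelial lists, -2.46 in the tracking class, -1.51 in the third class and -1.41 in the fourth. Of the fourth class, 171 genes were lower by less than 4-fold and 35 by 4-fold or more. The third class was set up after the values were seen. Its rule asked for population means within 0.5 log2 units of each other outside colon and a second colon array higher by 0.323 or more. It took in 5.7% of all genes tested, against 22.6% of the lower genes.

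**Figure D1:**
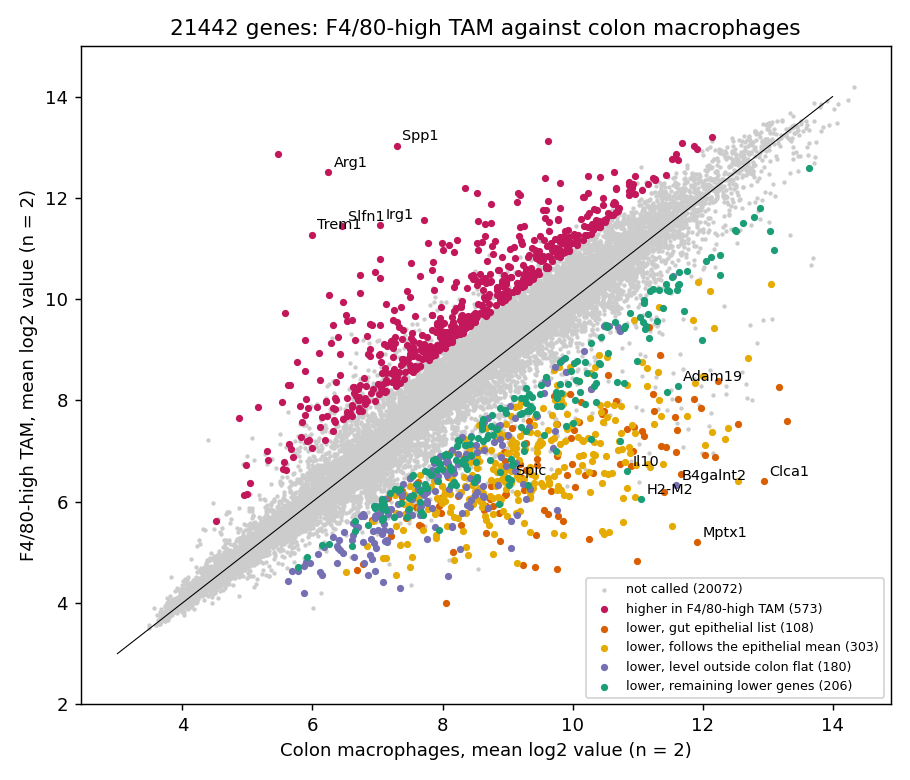
Mean log2 value of each of 21442 genes in F4/80-high TAM (vertical axis) against colon macrophages (horizontal axis), n = 2 arrays each, with the line of equal values. Called genes are coloured by direction and class, and the epithelial and tracking classes reach farthest below the line.

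The mean over the genes that define macrophages was close in the 2 tissues. Averaged over 19 such genes, F4/80-high TAM replicates 1 and 2 had 12.26 and 12.06, and the colon replicates 12.16 and 12.14. Single genes moved both ways under this mean. Both F4/80-high TAM arrays lay above both colon arrays in 42.1% of the 19 and below both in 26.3%. Over all genes these shares were 32.7% and 18.1%. Fcgr1, the high-affinity receptor for immunoglobulin G, was the only one of the 19 called, at 12.23 and 12.16 in F4/80-high TAM and 11.14 and 10.69 in colon macrophages (log2 difference 1.27 ± 0.20 SE, adjusted p = 0.0132), and this call was lost without either F4/80-high TAM array or colon replicate 2 (adjusted p up to 0.066). Csf1r, the receptor for the growth factor that keeps macrophages alive, read 12.81 and 12.70 in F4/80-high TAM and 12.91 and 12.92 in colon macrophages. Adgre1, which encodes the sorted antigen F4/80, read 12.49 and 12.31 against 12.92 and 12.83, and neither gene passed the test.

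The second F4/80-high TAM array stood apart from the first in genes of other cells. Its mean over 26 fibroblast markers was 9.0, against 7.79 in replicate 1, with colon arrays at 8.03 and 8.09. For 21 neutrophil markers the F4/80-high TAM arrays had means of 6.98 and 7.79, and the colon arrays 6.80 and 6.77. For 26 T and NK cell markers the means were 6.56 and 7.27 in F4/80-high TAM and 6.61 and 6.50 in colon macrophages. For 23 B and plasma cell markers the F4/80-high TAM means were 7.14 and 7.87, again higher on the second array. Both lay below the colon arrays, at 8.07 and 8.04. In Ly6C-high TAM the second array was also the higher one for the fibroblast, T and NK cell and B cell markers, and the lower one for the neutrophil markers. The part of these cells in single results was not tested beyond the splits given here.

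**Figure D2:**
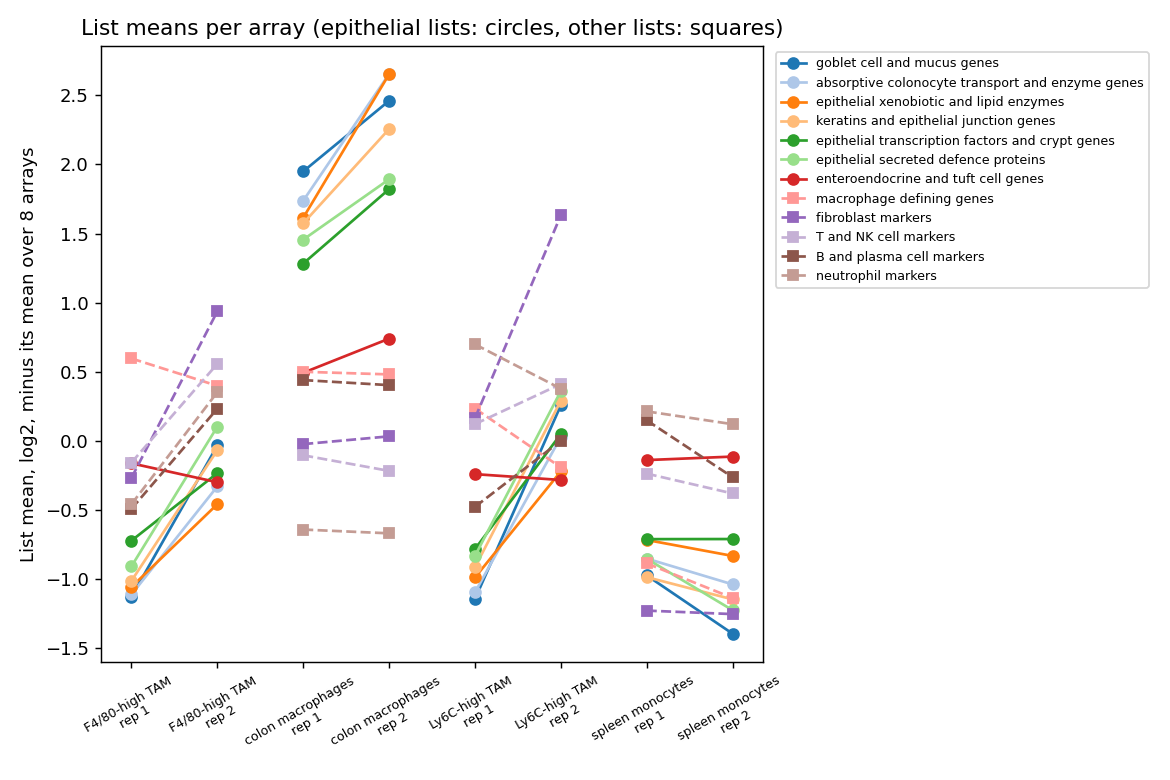
Mean log2 value of each marker list on each array, as a difference from that list's own mean over the 8 arrays. Lines join the 2 replicates of a population, circles are the 7 epithelial lists and squares the macrophage and other cell lists, and 6 of the epithelial lists lie above 1 on both colon arrays.

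Genes of the epithelial lists and of the tracking class together made up most of the largest falls of the comparison. The mean over the 181 measured epithelial genes was 6.34 and 7.06 in F4/80-high TAM, 8.72 and 9.37 in colon macrophages, 6.36 and 7.33 in Ly6C-high TAM, and 6.46 and 6.29 in spleen monocytes. Both colon arrays therefore lay above the other 6. Lower calls covered 108 of the 181 genes, against 3.72% of all genes. They held 22 of 31 absorptive colonocyte genes, 16 of 21 xenobiotic and lipid enzymes, 26 of 38 keratins and junction genes, 18 of 30 transcription factors and crypt genes, 13 of 23 goblet cell genes, 8 of 21 secreted defence proteins and 6 of 18 enteroendocrine and tuft cell genes. Single arrays moved every one of these counts by more than 1.5 times. Without F4/80-high TAM replicate 1 the lower calls were 5 for the colonocyte list, 7 for the xenobiotic and lipid enzymes, 6 for the keratins and junction genes, 7 for the transcription factors and crypt genes, 8 for the goblet cell list, 3 for the secreted defence proteins and 1 for the enteroendocrine and tuft cell list. Without colon replicate 2 there were 7 colonocyte, 10 enzyme, 7 keratin and junction, 8 transcription factor and crypt and 2 defence genes. Without F4/80-high TAM replicate 2 there were 10 colonocyte, 9 enzyme, 12 keratin and junction, 3 defence and 1 enteroendocrine and tuft cell genes. Without either spleen monocyte array there were 13 colonocyte, 10 enzyme, 10 keratin and junction and 3 defence genes.

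The steepest differences were in secreted and metabolic proteins of the epithelium. Mptx1, a secreted pentraxin of the gut, read 4.80 and 5.6 in F4/80-high TAM and 11.64 and 12.19 in colon macrophages (log2 difference -6.71 ± 0.49 SE, adjusted p = 0.00156). Clca1, a goblet cell protein that processes mucus, read 5.82 and 6.99 against 12.76 and 13.13 (-6.54 ± 0.76, adjusted p = 0.00555). Cyp2c55, a cytochrome P450 of the colon, read 4.57 and 5.09 against 10.52 and 11.47 (-6.17 ± 0.43, adjusted p = 0.00136). The groups lay far apart for all 3 genes, and in each the second array was the higher one in both populations.

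Other epithelial genes had as large a difference with a much wider spread. Muc2, the main mucin of the colon, read 6.99 and 9.52 in F4/80-high TAM and 13.04 and 13.31 in colon macrophages (-4.92 ± 1.22, adjusted p = 0.0467). Car1, a carbonic anhydrase of colonocytes, read 6.38 and 8.80 against 13.12 and 13.47 (-5.71 ± 1.26, adjusted p = 0.0334). Both calls were lost without any single array of F4/80-high TAM, colon macrophages or spleen monocytes, with adjusted p up to 0.178 for Muc2 and 0.142 for Car1. Epcam, an adhesion protein of epithelial cells, read 6.35 and 8.77 in F4/80-high TAM and 11.30 and 11.92 in colon macrophages and did not pass (-4.05 ± 1.20, adjusted p = 0.0785). Krt8, a keratin, read 10.13 and 12.42 in F4/80-high TAM and 13.10 and 13.60 in colon macrophages and did not pass either (-2.08 ± 1.02, adjusted p = 0.265). In Ly6C-high TAM, Epcam read 6.11 and 9.67 and Krt8 10.38 and 12.94, so the second array of each tumour population held more of both transcripts than the first.

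For a granule gene and a gut hormone gene the F4/80-high TAM arrays lay close together. Chga, a granule protein of hormone-producing cells, read 6.92 and 6.76 in F4/80-high TAM and 8.09 and 8.89 in colon macrophages (-1.65 ± 0.26, adjusted p = 0.0135). Gcg, which encodes the glucagon-like peptides, read 5.64 and 5.39 against 6.96 and 8.37 (-2.15 ± 0.41, adjusted p = 0.0223). Their second F4/80-high TAM array was not the higher one. Both calls were lost without either F4/80-high TAM array, and that of Gcg also without either spleen monocyte array, with adjusted p up to 0.0701 for Chga and 0.101 for Gcg. Cdx2, the intestinal master transcription factor, had the same pattern, with 6.15 and 6.13 in F4/80-high TAM and 8.58 and 9.35 in colon macrophages (-2.83 ± 0.25, adjusted p = 0.00271).

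The replicate gap of the epithelial genes was used to find further transcripts with a like replicate pattern. The second array exceeded the first by 0.715 in F4/80-high TAM, 0.646 in colon macrophages and 0.972 in Ly6C-high TAM, and fell short of it by 0.173 in spleen monocytes, as means over the 181 genes. A gene outside the lists was put in the tracking class when its own replicate differences followed these with a slope of 0.5 or more and the same sign in at least 3 of the 4 populations. These differences within populations do not enter the difference between the population means. Of all genes outside the lists, 9.04% met the rule, while 303 of the 689 lower genes outside the lists did. Among the 573 higher genes, 77 met it as well (13.4%). Of the epithelial list genes themselves, 108 of 181 met it, and 78 of the 108 called lower. The rule gives no cell of origin, because fibroblast, neutrophil and lymphocyte markers differed between the F4/80-high TAM replicates in the same direction. Just outside it, 52 lower genes had a slope of 0.4 to 0.5, and just inside, 40 had a slope of 0.5 to 0.6.

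**Figure D3:**
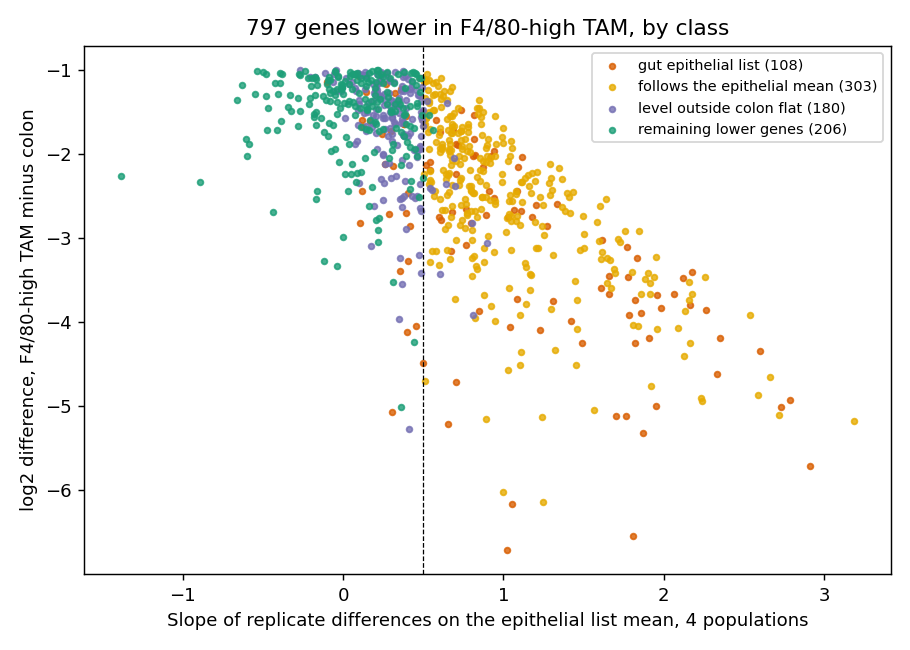
Log2 difference between F4/80-high TAM and colon macrophages (vertical axis) for the 797 lower genes against the slope of their replicate differences on the epithelial list mean over 4 populations (horizontal axis), coloured by class, with the dashed line at a slope of 0.5. Most differences beyond -4 lie right of the line, and the remaining lower genes crowd above -2.

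Enzymes and transporters were among the genes of the tracking class. Hsd3b3, a steroid dehydrogenase, read 5.16 and 5.64 in F4/80-high TAM and 9.91 and 11.21 in colon macrophages (-5.16 ± 0.42, adjusted p = 0.00223). Hao2, a peroxisomal oxidase of hydroxy acids, read 4.89 and 5.82 against 9.94 and 11.01 (-5.12 ± 0.49, adjusted p = 0.00332). Apol7c, of the apolipoprotein L family, read 5.16 and 7.64 against 12.77 and 12.31 (-6.14 ± 0.79, adjusted p = 0.00736). Apol7c met the rule through the other populations, since its second colon array was the lower one. Kcne3, a potassium channel subunit of crypt cells, had a log2 difference of -4.51. The class also took in genes that are not particular to epithelium, such as Igf1 (log2 difference -2.51) and Tnfaip3 (-1.95). Another was Cd4, a marker of helper T cells that some gut macrophages also carry. It read 7.35 and 9.20 in F4/80-high TAM and 10.96 and 11.32 in colon macrophages (-2.86 ± 0.57, adjusted p = 0.0252), a call lost without either colon array or either spleen monocyte array (adjusted p up to 0.122).

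Genes of the third class were near 1 value in 3 populations because the rule of the class asked for this. B4galnt2, a glycosyltransferase that is known in mice for gut epithelial glycans, read 6.26 and 6.38 in F4/80-high TAM, 11.09 and 12.09 in colon macrophages, 6.17 and 6.18 in Ly6C-high TAM and 6.29 and 6.03 in spleen monocytes (-5.27 ± 0.30, adjusted p = 0.000908). Aadac, an esterase, read 5.19 and 4.98 in F4/80-high TAM and 8.50 and 9.61 in colon macrophages (-3.97 ± 0.33, adjusted p = 0.00231). Scin, an actin-severing protein, read 5.79 and 5.67 against 8.59 and 9.71 (-3.42 ± 0.34, adjusted p = 0.00347). In all 3 the second colon array was higher by about 1 log2 unit, where the rule of the class asked for 0.323 or more. The F4/80-high TAM arrays, which the rule did not compare with each other, lay close together. The fourth class was not free of such patterns. Ano9, a membrane protein of the anoctamin family, belonged to it and read 5.82 and 6.10 in F4/80-high TAM, 8.83 and 8.90 in colon macrophages, and 5.87 to 6.19 on the other 4 arrays (-2.91 ± 0.15, adjusted p = 0.000796).

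Among the higher genes, the interferon response was the broadest group. Of 44 interferon-response genes, 33 were higher and none was lower, against 2.67% and 3.72% of all genes, and both F4/80-high TAM arrays lay above both colon arrays in all 44. The median log2 difference of the list was 1.38, against 0.05 over all genes. Oas3, a sensor of double-stranded RNA, read 10.57 and 10.85 in F4/80-high TAM and 7.42 and 7.60 in colon macrophages (log2 difference 3.20 ± 0.15, adjusted p = 0.000655). Rsad2, the antiviral protein viperin, read 11.55 and 11.53 against 8.25 and 8.83 (3.0 ± 0.23, adjusted p = 0.00167). Irf7, the transcription factor that amplifies type I interferon, read 12.21 and 12.59 against 9.32 and 9.85 (2.82 ± 0.21, adjusted p = 0.00167). With any 1 array left out, 24 to 35 of the 44 were called, and 23 were called every time.

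Genes of the Ifi200 and Schlafen families, also induced by interferon, were among the largest rises. Slfn1, a regulator of lymphocyte quiescence, read 11.71 and 11.16 in F4/80-high TAM and 6.36 and 6.56 in colon macrophages (4.98 ± 0.28, adjusted p = 0.000898). Ifi208 read 9.85 and 9.59 against 5.6 and 5.55 (4.14 ± 0.28, adjusted p = 0.00119), and Ifi205, which binds DNA, 12.17 and 12.03 against 8.65 and 8.40 (3.58 ± 0.13, adjusted p = 0.000174). Probe sets of these families can share sequence with other members, so values of single members are uncertain. For these genes the colon arrays were the low ones, since spleen monocytes read 12.01 and 12.17 for Slfn1 and 12.38 and 12.48 for Ifi205. Of the 33 higher interferon-response genes, 26 had a spleen monocyte mean within 1 log2 unit of F4/80-high TAM or above it and away from colon, and 4 had one near the colon mean only. Over all 573 higher genes those counts were 195 and 215, and this grouping was chosen after the values were seen.

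Promoter sequences are shown for 4 of the higher interferon-response genes because they hold the core of the interferon-stimulated response element, the DNA motif bound by the interferon-activated STAT and IRF factors. The core was searched on both strands as GAAA, any 2 bases and again GAAA, from 250 bases before to 50 after each start in RefSeq promoters of build GRCm38.p6. The stretches run 5′ to 3′ along the strand of the gene, with the core and any overlapping match in capitals. They lie at chr5:120777700-120777759 (Oas3), chr1:174031855-174031914 (Ifi205), chr12:26456538-26456597 (Rsad2) and chr4:156200862-156200921 (Isg15), all on the minus strand and upstream of the start.
Oas3: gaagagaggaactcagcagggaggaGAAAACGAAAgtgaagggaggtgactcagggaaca
Ifi205: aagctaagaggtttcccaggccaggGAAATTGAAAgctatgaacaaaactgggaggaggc
Rsad2: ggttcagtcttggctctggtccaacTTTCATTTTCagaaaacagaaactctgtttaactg
Isg15: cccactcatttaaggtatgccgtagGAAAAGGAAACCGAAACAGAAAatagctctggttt

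The cores began 75 bases before the start in Oas3, 134 in Ifi205, 120 in Rsad2 and 78 in Isg15. Rsad2 carried its core on the opposite strand, and Isg15, a ubiquitin-like modifier, had 3 overlapping matches. Isg15 read 7.28 and 7.17 in F4/80-high TAM and 5.99 and 5.91 in colon macrophages (log2 difference 1.28 ± 0.23, adjusted p = 0.0195), a call lost without any single array of F4/80-high TAM, colon macrophages or spleen monocytes (adjusted p up to 0.0936). Promoters were found for 26 of the 33 higher genes, and 13 of their 30 promoters (43.3%) held the core. The share was 8.65% of 555 promoters of all higher genes and 3.39% of 19509 promoters of all genes tested. A match is a description of the letters and not evidence of a bound site.

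The GTPases that interferon induces against intracellular microbes followed the same direction with a single exception. Of 18 measured, 12 were higher and 1 was lower (66.7% and 5.56%, against 2.67% and 3.72% of all genes), with a median of 1.33. Mx1, of the Mx family of GTPases, read 9.89 and 9.68 in F4/80-high TAM and 7.28 and 7.23 in colon macrophages (2.53 ± 0.19, adjusted p = 0.00175). Iigp1, which attacks the vacuoles of parasites, read 10.59 and 10.35 against 8.35 and 8.60 (1.99 ± 0.17, adjusted p = 0.00245). Iigp1 read 5.80 and 5.86 in spleen monocytes, below both macrophage populations, unlike Mx1 at 9.67 and 9.83. The exception, Gbp2b, a guanylate-binding protein, read 7.84 and 8.50 in F4/80-high TAM and 11.67 and 11.22 in colon macrophages (-3.28 ± 0.27, adjusted p = 0.00231). The 12 calls became 7 without either F4/80-high TAM array or without colon replicate 2.

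Sensors of foreign nucleic acid and the class I presentation pathway rose in part. Higher calls covered 12.1% of the sensors, 17.9% of the proteasome subunits and 28.6% of the class I genes, against 2.67% of all genes. Lower calls covered 6.06% of the sensors, against 3.72% of all genes. Among 33 cytosolic sensors and inflammasome genes, 4 were higher and 2 lower, and the lower calls became 1 without any single array of F4/80-high TAM or spleen monocytes or colon replicate 2. Zbp1, a sensor of Z-form nucleic acid, read 11.72 and 11.87 in F4/80-high TAM and 9.82 and 9.79 in colon macrophages (1.99 ± 0.12, adjusted p = 0.00101). Mefv, which encodes the inflammasome protein pyrin, read 8.09 and 8.24 against 9.86 and 9.63 (-1.58 ± 0.14, adjusted p = 0.00303). Of 28 proteasome subunits, 5 were called higher, and the median was 0.77. Both F4/80-high TAM arrays lay above both colon arrays in all 28, against 32.7% of all genes. The 5 calls became 0 without F4/80-high TAM replicate 2, 1 without colon replicate 1, and 2 without F4/80-high TAM replicate 1 or either spleen monocyte array. Of 21 class I presentation genes 6 were higher, with a median of 0.80, and 1 was called without colon replicate 2 and 3 without colon replicate 1 or F4/80-high TAM replicate 2. Tap1, the peptide transporter of that pathway, read 11.34 and 11.77 in F4/80-high TAM and 10.54 and 10.44 in colon macrophages (1.07 ± 0.16, adjusted p = 0.012), a call lost without F4/80-high TAM replicate 2 or colon replicate 2 (adjusted p up to 0.0627).

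Activating receptors of myeloid cells were higher in F4/80-high TAM as single genes rather than as a whole list. The list held 37 receptors that signal through ITAM or ITIM motifs, the tyrosine motifs that switch immune cells on or off. Of these, 10 were higher and 1 lower (27% and 2.7%, against 2.67% and 3.72% of all genes). Their median of 0.20 was close to that of all genes. Trem1, which amplifies inflammation in monocytes and neutrophils, read 11.03 and 11.51 in F4/80-high TAM and 5.82 and 6.15 in colon macrophages (5.28 ± 0.20, adjusted p = 0.000174). Cd300lf, an inhibitory lipid receptor, read 10.92 and 10.68 against 7.09 and 6.98 (3.77 ± 0.18, adjusted p = 0.000655). Trem1 read 11.76 and 11.94 in Ly6C-high TAM and 7.95 and 7.83 in spleen monocytes, so both tumour populations were high. Treml2 rose by 3.38 ± 0.29, Trem3 by 3.04 ± 0.19, Sirpb1b by 1.87 ± 0.24 and the lipid receptor Trem2 by 1.83 ± 0.14, with adjusted p between 0.0011 and 0.00722. Siglech, a marker of plasmacytoid dendritic cells, went the other way, at 6.36 and 6.29 against 7.89 and 8.36 (-1.80 ± 0.18, adjusted p = 0.00353). The 10 higher calls became 6 without either F4/80-high TAM array or without colon replicate 2, and the single lower call became 2 without either Ly6C-high TAM array.

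C-type lectins, which bind sugars and lipids of microbes and dying cells, moved in both directions, with 4 higher and 2 lower among 32. The shares were 12.5% and 6.25%, against 2.67% and 3.72% of all genes. Clec4e, the receptor Mincle for mycobacterial glycolipid and dead cells, read 10.52 and 10.64 in F4/80-high TAM and 7.43 and 8.23 in colon macrophages (2.75 ± 0.26, adjusted p = 0.00318). Its partner Clec4d read 10.32 and 10.34 against 7.78 and 8.63 (2.13 ± 0.29, adjusted p = 0.00802), and Clec5a and Clec12a were higher by 2.04 ± 0.17 and 1.80 ± 0.19. These 4 higher calls were the same with any single array left out. Mgl2, a galactose-binding lectin, read 8.70 and 10.13 in F4/80-high TAM and 11.25 and 10.97 in colon macrophages (-1.70 ± 0.42, adjusted p = 0.0464), a call lost without F4/80-high TAM replicate 1 or any single array of colon macrophages or spleen monocytes, with adjusted p up to 0.211. Neither lower lectin call was made without F4/80-high TAM replicate 1 or colon replicate 2, and 1 was without the other colon or F4/80-high TAM array or either spleen monocyte array. Both F4/80-high TAM arrays lay below both colon arrays in 50% of the lectins, against 18.1% of all genes, and the lectin median was -0.26.

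Arginine metabolism was higher at uptake and at both breakdown routes. Of 28 genes 6 were higher and 1 lower, with a median of 0.55, and the lower call was lost without any single array of F4/80-high TAM, colon macrophages or spleen monocytes. The higher and lower shares were 21.4% and 3.57%, against 2.67% and 3.72% of all genes. Arg1, which splits arginine into urea and ornithine, read 12.42 and 12.60 in F4/80-high TAM and 6.22 and 6.26 in colon macrophages (6.27 ± 0.15, adjusted p = 4.71e-05). The importer Slc7a2 read 9.58 and 10.59 against 6.37 and 6.16 (3.82 ± 0.32, adjusted p = 0.00231). Nos2, which makes nitric oxide from arginine, read 9.13 and 10.22 against 6.37 and 6.66 (3.16 ± 0.33, adjusted p = 0.00413), and Sms, which makes the polyamine spermine, 9.85 and 9.84 against 7.83 and 8.12 (1.87 ± 0.29, adjusted p = 0.0129). Nos2, Ass1 and Arg2 were 3 higher genes that met the tracking rule, so their arrays moved with the epithelial mean within populations. Ass1, which rebuilds arginine from citrulline, read 10.53 and 11.76 against 8.45 and 9.18 and Arg2 8.66 and 9.19 against 6.25 and 7.45. The Ass1 call (adjusted p = 0.0185) was lost without colon replicate 1 or either spleen monocyte array, and that of Arg2 (adjusted p = 0.0208) without either F4/80-high TAM or either spleen monocyte array. Odc1, the enzyme between arginase and the polyamines, read 9.69 and 10.74 in F4/80-high TAM and 10.20 and 10.30 in colon macrophages and was not called (-0.04 ± 0.56, adjusted p = 0.981).

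The mitochondrial pathways were almost without calls apart from itaconate. Irg1, also named Acod1, which diverts the TCA cycle into itaconate, read 11.15 and 11.78 in F4/80-high TAM and 6.70 and 7.38 in colon macrophages (4.42 ± 0.28, adjusted p = 0.00109). The 2 lower genes among 28 of that cycle were Suclg1 and Suclg2, subunits of succinyl-CoA ligase, at -1.10 ± 0.23 and -1.20 ± 0.23, and both calls were lost without either F4/80-high TAM array, colon replicate 2 or either spleen monocyte array (adjusted p up to 0.11). Suclg1 and Suclg2 both belonged to the third class, and they were 7.14% of the list, against 3.72% of all genes. Sdha, the succinate dehydrogenase subunit on which itaconate acts, read 11.20 and 11.40 against 11.29 and 11.58 and did not pass. Of 43 genes of oxidative phosphorylation only Ndufa4 was called (-1.20 ± 0.17, adjusted p = 0.00953), a call lost without F4/80-high TAM replicate 1 or colon replicate 2 (adjusted p up to 0.0552), and the median was -0.11.

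Glycolysis and hypoxia genes were higher more often. Of 41 measured, 15 were higher and 1 lower (36.6% and 2.44%, against 2.67% and 3.72% of all genes), and the median was 0.79. Bnip3, a mitochondrial protein of hypoxic cells, read 11.20 and 11.01 in F4/80-high TAM and 7.79 and 8.21 in colon macrophages (3.11 ± 0.22, adjusted p = 0.00146). Slc16a3, the lactate exporter MCT4, read 10.87 and 11.46 against 8.31 and 8.13 (2.95 ± 0.20, adjusted p = 0.00134). Bnip3 was near the colon level in spleen monocytes (8.84 and 8.88), whereas Slc16a3 was close to the tumour level there (10.47 and 10.48). The count of 15 became 6 without colon replicate 1 or F4/80-high TAM replicate 2 and 9 without colon replicate 2. Car12, a carbonic anhydrase also made by gut epithelium, was the lower one and belonged to the third class. Adssl1, an enzyme of adenine nucleotide synthesis, rose to 10.71 and 11.24 in F4/80-high TAM, against 7.80 and 8.22 in colon macrophages (2.96 ± 0.22, adjusted p = 0.00156), with spleen monocytes at 10.96 and 10.95.

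Of 33 ion channels and purine receptors, 5 were higher and 4 lower, with a median of 0.18. The shares were 15.2% and 12.1%, against 2.67% and 3.72% of all genes. The 5 higher calls became 3 without F4/80-high TAM replicate 2, and the 4 lower became 2 without either F4/80-high TAM array, colon replicate 2 or either spleen monocyte array. Nt5e, the enzyme CD73 that makes adenosine outside the cell, read 10.79 and 11.41 in F4/80-high TAM and 7.91 and 9.16 in colon macrophages (2.57 ± 0.41, adjusted p = 0.0132), a call lost without F4/80-high TAM replicate 2 (adjusted p = 0.0682). The adenosine receptor Adora2b read 8.35 and 8.54 against 6.67 and 6.93 (1.65 ± 0.17, adjusted p = 0.00413). Adk, the kinase that removes adenosine inside the cell, was lower, at 8.52 and 8.16 against 9.27 and 9.96 (-1.27 ± 0.24, adjusted p = 0.0229), a call lost without either F4/80-high TAM array, colon replicate 2 or either spleen monocyte array (adjusted p up to 0.107). Adk belonged to the third class, whose genes were raised only in colon. Nt5e read 6.4 and 6.11 in spleen monocytes, below both macrophage populations, while Adora2b read 9.48 and 9.43 there, above both.

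Lipid pathways had calls at single steps. Ch25h, which makes 25-hydroxycholesterol, read 11.33 and 10.80 in F4/80-high TAM, 8.11 and 8.11 in colon macrophages, and 5.30 and 5.16 in spleen monocytes (2.96 ± 0.31, adjusted p = 0.00413). The cholesterol synthesis list had no higher gene and 2 lower ones among 31, or 6.45% against 3.72% of all genes. These were Stard4 (-1.40 ± 0.23) and Hmgcs1 (-1.36 ± 0.28), both of the third class, and the list median was -0.30. The tracking rule was met by 16 of the 31 genes, against 9.04% of genes outside the epithelial lists. Stard4 was lost without either F4/80-high TAM array and Hmgcs1 also without colon replicate 2 or either spleen monocyte array (adjusted p up to 0.112). In fatty acid handling 6 of 34 genes were lower and 2 higher (17.6% and 5.88%, against 3.72% and 2.67% of all genes). Both higher genes met the tracking rule. Cd36, a scavenger receptor that takes up fatty acids, read 7.96 and 8.76 in F4/80-high TAM and 10.56 and 10.82 in colon macrophages (-2.33 ± 0.25, adjusted p = 0.00458). Its regulator Pparg read 8.80 and 8.71 against 9.98 and 10.40 (-1.44 ± 0.17, adjusted p = 0.00606). The 6 lower calls became 3 without either F4/80-high TAM array or without colon replicate 2, and the 2 higher calls became 0 without F4/80-high TAM replicate 2 or any single array of colon macrophages or spleen monocytes.

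Of 24 prostaglandin and leukotriene enzymes, 1 was higher and 3 were lower, with a median of -0.06, and the lower calls became 1 without F4/80-high TAM replicate 1 or colon replicate 2. The higher one became 2 without either Ly6C-high TAM array. From all 8 arrays, 4.17% of these enzymes were higher and 12.5% lower, against 2.67% and 3.72% of all genes. Alox5ap, which hands arachidonic acid to 5-lipoxygenase, read 12.50 and 12.32 in F4/80-high TAM and 10.61 and 10.24 in colon macrophages (1.98 ± 0.18, adjusted p = 0.00303). The leukotriene B4 receptor Ltb4r1, from the list of chemoattractant receptors, in which 2 of 40 genes were higher and none lower (between 1 and 4 higher with single arrays left out), read 7.64 and 8.09 against 6.6 and 6.61 (1.26 ± 0.17, adjusted p = 0.00817). Higher calls covered 5% of the chemoattractant receptors, against 2.67% of all genes. Hpgd, which inactivates prostaglandins, read 7.51 and 8.21 in F4/80-high TAM and 11.82 and 12.15 in colon macrophages (-4.13 ± 0.24, adjusted p = 0.000908). Hpgd belonged to the epithelial lists, but it read 12.27 and 12.33 in spleen monocytes, in which the epithelial mean was low, and 8.41 and 8.48 in Ly6C-high TAM. Ptges, which makes prostaglandin E2, read 8.35 and 10.02 in F4/80-high TAM and 6.92 and 7.14 in colon macrophages and did not pass (2.16 ± 0.73, adjusted p = 0.11).

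Of 39 interleukin and cytokine receptors 4 were higher and none lower, with a median of 0.34, and the 4 calls became 2 without any single array of colon macrophages or spleen monocytes. Higher calls covered 10.3% of that list, against 2.67% of all genes. Il2ra and Tnfrsf9 were outside that list and among the largest rises. Il2ra, the alpha chain of the interleukin 2 receptor, read 9.28 and 9.12 in F4/80-high TAM and 5.95 and 5.80 in colon macrophages (3.32 ± 0.25, adjusted p = 0.00165). Tnfrsf9, the costimulatory receptor 4-1BB, read 9.82 and 11.26 against 7.04 and 6.89 (3.58 ± 0.45, adjusted p = 0.00675). Il12rb1, a chain of the interleukin 12 and 23 receptors, read 9.64 and 10.07 against 7.56 and 7.15 (2.5 ± 0.28, adjusted p = 0.00488). T and NK cell markers had 1 higher and 2 lower calls among 26 (0 to 2 higher and 1 or 2 lower with single arrays left out), and their mean was higher on the second F4/80-high TAM array than on the first, as given above, so their part in these values was not tested. The T and NK cell shares were 3.85% higher and 7.69% lower, against 2.67% and 3.72% of all genes. Of 35 TNF superfamily and checkpoint genes 6 were higher and none lower, or 17.1% higher. Among them was Tnfsf14, the ligand LIGHT, at 8.84 and 9.18 against 7.15 and 6.61 (2.14 ± 0.21, adjusted p = 0.00332). The 6 calls became 2 or 3 without any single array of F4/80-high TAM, colon macrophages or spleen monocytes.

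Cell cycle genes lay above colon in every case, but few were called. Both F4/80-high TAM arrays lay above both colon arrays in all 50 genes, against 32.7% of all genes tested. The median was 1.21, and 7 were called higher, or 14% against 2.67%. Ccne1, the cyclin of S phase entry, read 9.08 and 9.09 in F4/80-high TAM and 7.62 and 7.80 in colon macrophages (1.37 ± 0.17, adjusted p = 0.0071). Gins1, a subunit of the replicative helicase, read 8.03 and 8.10 against 6.69 and 6.75 (1.35 ± 0.12, adjusted p = 0.0028). Rrm2, which makes deoxynucleotides, read 9.90 and 10.52 against 7.57 and 8.12 and did not pass (2.37 ± 0.82, adjusted p = 0.119). In Ly6C-high TAM it read 7.64 and 10.34, a gap that widened the shared spread. Without either Ly6C-high TAM array 38 of the 50 were called, and without other single arrays 2 or 3 were. Of the 50 genes, 40 met the tracking rule.

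**Figure D4:**
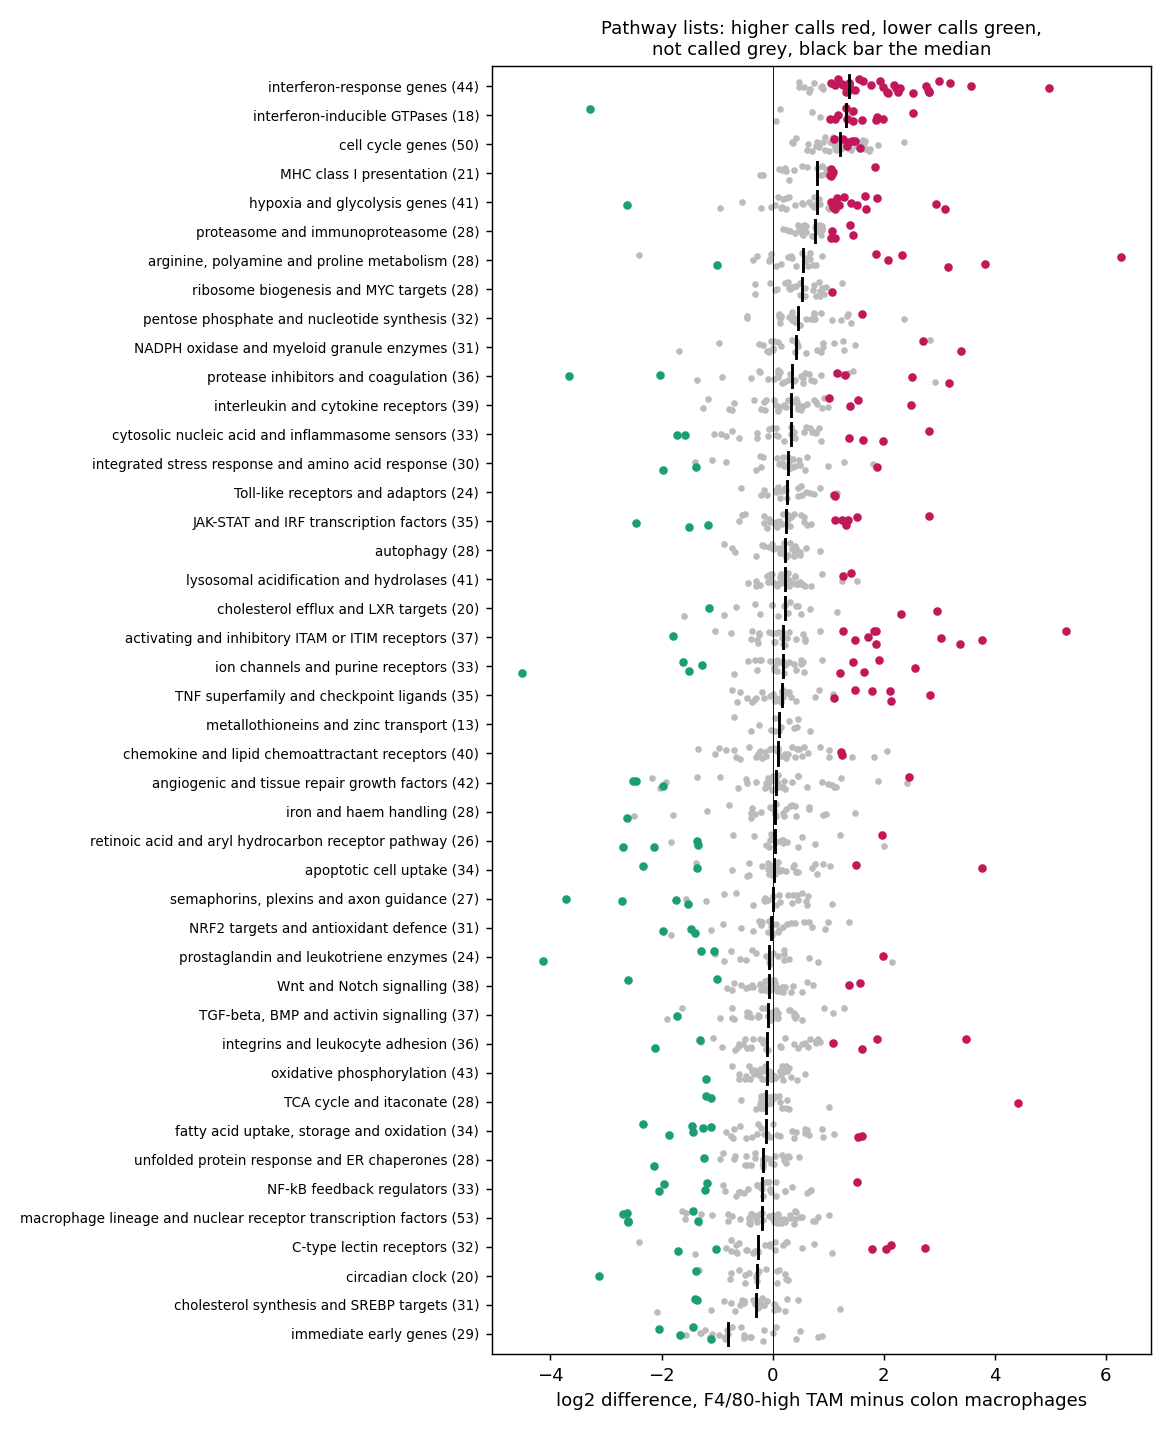
Log2 difference between F4/80-high TAM and colon macrophages for every measured gene of each pathway list, ordered by the list median (black bar), with the number of genes in brackets. Interferon lists and cell cycle genes have the highest medians and immediate early genes the lowest.

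Il10, the anti-inflammatory cytokine of gut macrophages, was among the 206 lower genes of the fourth class. It read 6.37 and 6.83 in F4/80-high TAM and 10.58 and 11.09 in colon macrophages (-4.24 ± 0.23, adjusted p = 0.00089), with 5.37 to 5.68 on the 4 other arrays. H2-M2, a non-classical class I molecule, read 5.55 and 6.55 against 10.97 and 11.14 (-5.01 ± 0.33, adjusted p = 0.00116). Adam19, a membrane metalloprotease, read 8.30 and 8.27 against 11.64 and 11.59 (-3.34 ± 0.13, adjusted p = 0.000174). For Il10 and H2-M2 the second array was the higher one in both populations, as for the epithelial lists. The second colon array was not raised over the first for Adam19. Tppp, a tubulin-binding protein, read 6.62 and 6.30 against 9.05 and 8.96 (-2.54 ± 0.14, adjusted p = 0.000907).

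Some of these genes were as high in spleen monocytes as in colon macrophages, or higher. The F4/80 relative Adgre4, an adhesion receptor of monocytes and macrophages, read 6.02 and 6.62 in F4/80-high TAM, 9.48 and 9.15 in colon macrophages, and 12.52 and 12.62 in spleen monocytes (-2.99 ± 0.22, adjusted p = 0.00164). Tspan13, a tetraspanin, read 8.89 and 9.51 in F4/80-high TAM, 12.01 and 11.96 in colon macrophages, and 11.94 and 11.96 in spleen monocytes (-2.79 ± 0.20, adjusted p = 0.00154). Cd177, known as a neutrophil surface protein, read 7.34 and 7.64, 9.68 and 10.13, and 11.43 and 11.49 in the same populations (-2.42 ± 0.20, adjusted p = 0.00231). The spleen monocyte mean was above that of F4/80-high TAM by 1 log2 unit or more in 41 of the 206 genes. The same share over all genes was not counted. Genes flat outside colon with a higher second colon array had gone to the third class, so this share depends on that rule.

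Of 53 lineage and nuclear receptor transcription factors, 6 were lower and none was higher, or 11.3% lower against 3.72% of all genes. Spic, which drives the macrophages that recycle iron from red cells, read 6.26 and 6.58 in F4/80-high TAM, 8.86 and 9.24 in colon macrophages, and 9.65 and 9.35 in spleen monocytes (-2.63 ± 0.20, adjusted p = 0.00167). The aryl hydrocarbon receptor Ahr, which senses dietary and microbial compounds, read 10.43 and 10.17 in F4/80-high TAM and 11.81 and 11.46 in colon macrophages (-1.34 ± 0.16, adjusted p = 0.00644). Ahrr, its target and repressor, read 6.50 and 6.16 against 9.04 and 9.0 (-2.69 ± 0.22, adjusted p = 0.00223). Ahr was also high in spleen monocytes (11.53 and 11.36), while Ahrr was at 6.22 and 6.11 there. The other 3 lower factors were Pparg, described above, Gata6, which was on the epithelial lists, and the Notch target Hes1, which met the tracking rule. The calls of Gata6 and Hes1 were lost without F4/80-high TAM replicate 1 or colon replicate 2, that of Gata6 also without either spleen monocyte array and that of Hes1 without colon replicate 1 (adjusted p up to 0.0966 for Gata6 and 0.0702 for Hes1). The JAK-STAT and IRF factors had 6 higher and 3 lower genes among 35, with a median of 0.25. Their shares were 17.1% and 8.57%, against 2.67% and 3.72% of all genes. Among the lower ones, Irf4 read 6.83 and 6.85 in F4/80-high TAM and 8.40 and 8.29 in colon macrophages (-1.50 ± 0.14, adjusted p = 0.00329). Irf4 is also a plasma cell factor, and Jchain, the joining chain of secreted antibody, read 5.19 and 8.96 against 11.67 and 11.73 without passing (-4.63 ± 1.27, adjusted p = 0.0619). B and plasma cell markers had 4 lower and no higher calls among 23, or 17.4% lower against 3.72% of all genes. The 4 were Irf4, Derl3, Prdm1 and Tnfrsf17, all of the fourth class. The part of plasma cells in the values of Irf4 and the other 3 was not tested.

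Of 28 genes of the unfolded protein response, 2 were lower and none higher, or 7.14% lower against 3.72% of all genes, with a median of -0.18. Herpud1, which helps clear misfolded proteins from the endoplasmic reticulum, read 10.74 and 11.21 in F4/80-high TAM and 13.14 and 13.07 in colon macrophages (-2.13 ± 0.20, adjusted p = 0.00324). Derl3, of the same disposal route and also a plasma cell marker, read 7.07 and 7.15 against 8.27 and 8.42 (-1.23 ± 0.13, adjusted p = 0.00382). The chaperone Hspa5 stayed under 2-fold at 12.39 and 12.67 against 13.48 and 13.46 (-0.94 ± 0.15, adjusted p = 0.0129). Without F4/80-high TAM replicate 2, 4 of the 28 were called. In the integrated stress response 2 of 30 genes were lower and 1 was higher, with a median of 0.27. The shares were 6.67% and 3.33%, against 3.72% and 2.67% of all genes. The lower calls became 1 without F4/80-high TAM replicate 1 or either colon array, and the higher ones 3 without either Ly6C-high TAM array. Ddit3, the stress factor CHOP and 1 of the lower genes, read 8.42 and 8.76 against 10.05 and 9.90 (-1.38 ± 0.14, adjusted p = 0.00405). Among NF-kB genes, the subunit Rel read 11.33 and 11.35 against 12.54 and 12.50 (-1.18 ± 0.13, adjusted p = 0.00534). In that list 4 of 33 were lower and 1 higher (12.1% and 3.03%, against 3.72% and 2.67% of all genes). The 4 lower calls became 2 without F4/80-high TAM replicate 1 or colon replicate 2, and the higher one was lost without the second array of either population.

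Immediate early genes, which respond within minutes to handling or growth factors, had the lowest median of all pathway lists (-0.81). Of 29, 4 were lower and none higher, or 13.8% lower against 3.72% of all genes. The tracking rule was met by 16 of the 29, against 9.04% of genes outside the epithelial lists, and 1 of the 16 was called lower. Dusp2, a phosphatase that ends kinase signals, read 8.04 and 8.54 in F4/80-high TAM and 10.12 and 10.55 in colon macrophages (-2.05 ± 0.31, adjusted p = 0.0117). Ier2, an early transcription regulator, read 8.46 and 9.02 against 10.24 and 10.58 (-1.67 ± 0.25, adjusted p = 0.0118). Both calls were lost without F4/80-high TAM replicate 1 or colon replicate 2 (adjusted p up to 0.0668 for Dusp2 and 0.0661 for Ier2), and none of the 4 was called without either of these arrays. Herpud1, Ddit3 and Rel moved in the same direction as this list, and its part in them was not tested.

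**Figure D5:**
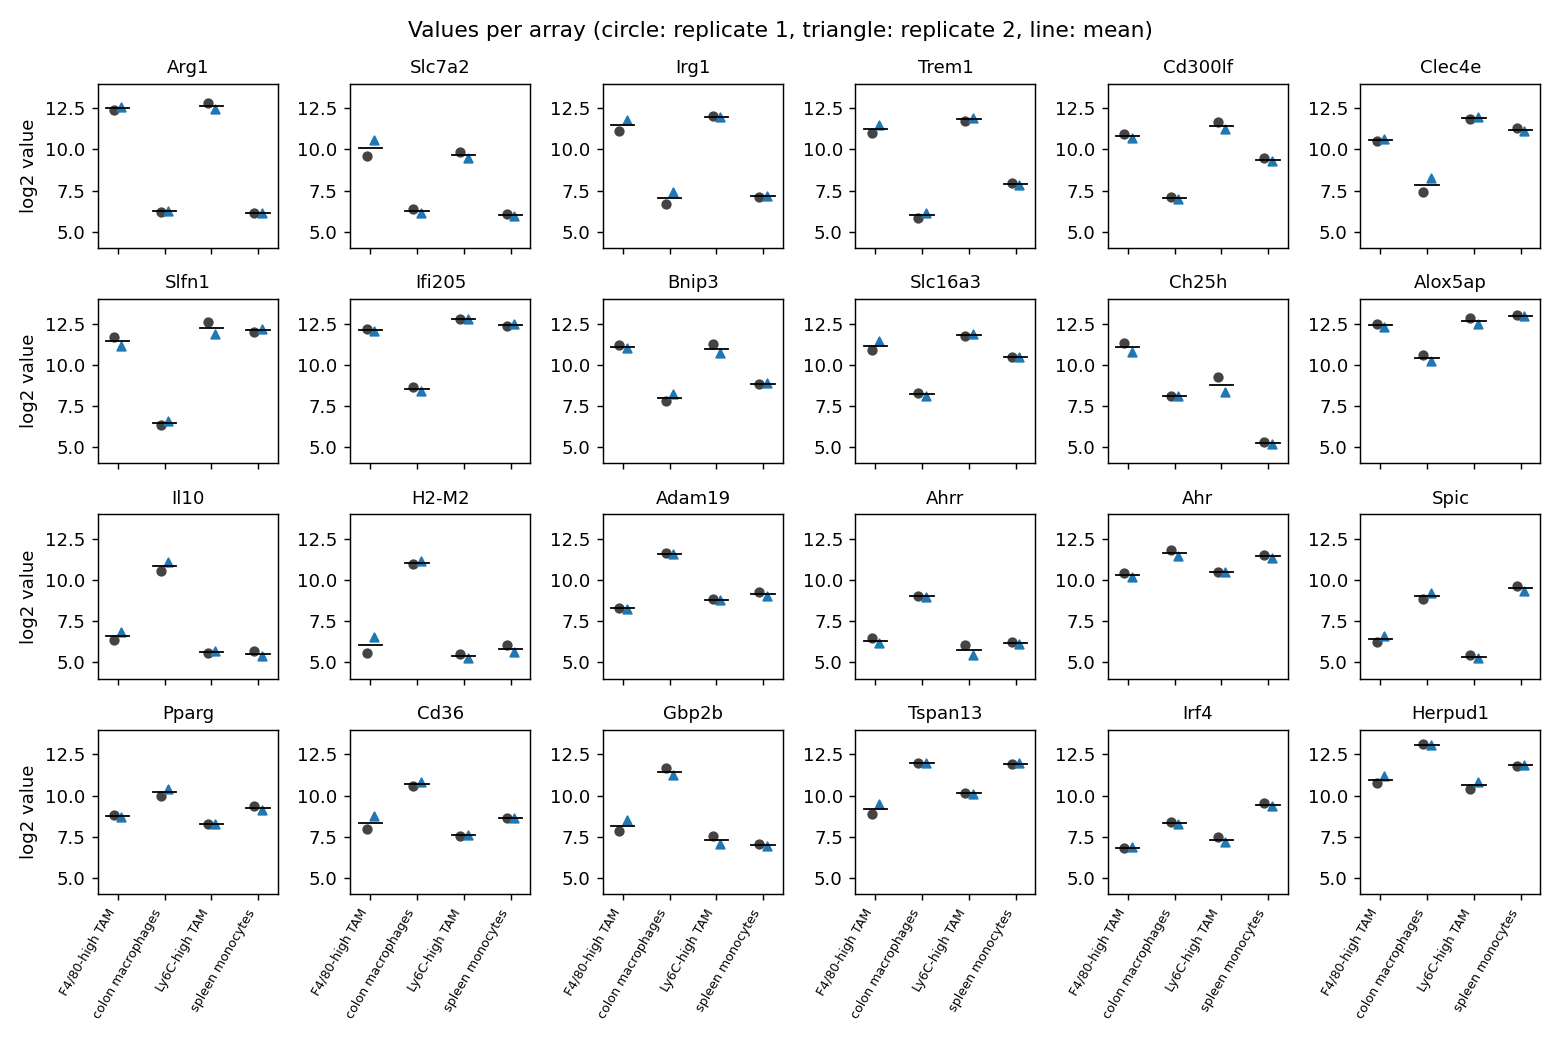
Log2 values of 24 genes on each array, with replicate 1 as circles, replicate 2 as triangles and the mean as a line, for F4/80-high TAM, colon macrophages, Ly6C-high TAM and spleen monocytes. The 12 genes of the upper rows are higher in F4/80-high TAM than in colon macrophages, and the 12 of the lower rows are lower, while spleen monocytes lie near either population or outside both.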

How the data were processed

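The deposited values are log2 expression values on Affymetrix arrays of total RNA labelled with biotin. They were made by the authors with RMA and Partek 6.6, per the submitters' processing notes, which give no version of RMA and no genome build. Their own selection used a 5% false discovery rate and 2-fold limit. Gene names came from a deposited annotated table, whose 8 columns of values were not used because their headings match no label, and 21023 named probe sets were matched to RefSeq (GRCm38.p6) by accession. For the 1901 genes that had several probe sets, the one with the highest mean was taken.

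The log2 difference of each gene was estimated in limma 3.58.1 (R 4.3.3) from all 8 arrays, which shared the estimate of the spread (residual degrees of freedom 4, prior degrees of freedom 2.64). The fit was tested on simulated data. P-values were adjusted over 21442 genes by the Benjamini-Hochberg method. Errors are standard errors of the log2 difference, and n is 2 arrays per population. The number of arrays limits the precision.

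The 62 gene lists, the classes and the comparison were chosen with earlier results of these data known. Named genes were the 30 largest rises, 12 largest falls of the epithelial and tracking classes and 30 largest other falls whose groups did not overlap, up to 5 members called per pathway list and direction, up to 3 per cell type list, the macrophage defining genes, and members not called where they show a pathway step. Predicted or unnamed transcripts were skipped, and a few single genes are not reported here. Cdx2 and Isg15 lay outside that rule and were chosen after their values were seen. Alternatives were median centring, quantile normalization, filtering on low values, other choices of arrays and probe sets, other moderation of the spread, a replicate block and other tracking slopes.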

Additional observations from a re-analysis of the deposited data

How the results depend on the processing

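Of 247 named genes that were called, 114 were called with any single array left out, and so were 200 of the higher and 241 of the lower genes of the whole comparison. With single arrays left out the higher genes numbered 291 to 788, the lower genes 319 to 960, the epithelial list and tracking genes 99 to 530 and the other lower genes 207 to 437. Against 573 higher genes, the count was 291 without colon replicate 1, 340 without F4/80-high TAM replicate 2 and 378 without either spleen monocyte array. Against 797 lower genes, the count was 319 without F4/80-high TAM replicate 1, 392 without colon replicate 2, 414 without F4/80-high TAM replicate 2 and 466 without either spleen monocyte array. Against 411 epithelial and tracking genes, it was 99 without F4/80-high TAM replicate 1, 160 without colon replicate 2, 207 without F4/80-high TAM replicate 2 and 206 without either spleen monocyte array. Against 386 other lower genes, it was 207 without F4/80-high TAM replicate 2, 220 without F4/80-high TAM replicate 1 and 232 without colon replicate 2. Where an arm kept 1 array, that array was assumed to vary like the others.

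Fewer genes tested, those above the median level, gave 379 lower, 209 epithelial and tracking and 170 other lower genes. No moderation gave 203 higher, 164 lower, 43 epithelial and tracking and 121 other lower genes. Leaving out the second arrays of both tumour populations, which was added once the values were known, gave 641 epithelial and tracking genes. Quantile normalization gave 513 higher and 710 lower genes. A replicate block gave 639 higher and 932 lower genes, with 528 in the epithelial and tracking classes and 404 outside. The labels do not tie equal replicate numbers to a shared animal or day, and over genes the replicate 1 deviations of F4/80-high TAM and colon macrophages had a correlation of 0.22. A tracking slope of 0.25 gave 534 and 263 genes inside and outside the epithelial and tracking classes, and 0.75 gave 301 and 496.

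Among the genes reported, the direction turned round in some near 0 and in a called one, and the cause was not tested. With the mean of all probe sets Atoh1, an epithelial list gene called higher, was at -0.89. C1qb was at 0.13 after median centring and between -0.049 and 0.043 with single arrays left out, turning without colon replicate 1 or F4/80-high TAM replicate 2. C1qc lay between -0.023 and 0.035, turning without the second array of either population. Cd14 lay between -0.27 and 0.39, turning without colon replicate 1 or F4/80-high TAM replicate 2. Lyz2 was at 0.11 after median centring and lay between -0.098 and 0.048, turning without F4/80-high TAM replicate 1.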

Other observations

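Of 36 protease inhibitors and coagulation genes, 4 were higher and 2 lower (11.1% and 5.56%, against 2.67% and 3.72% of all genes). The 4 became 1 without colon replicate 2 and 2 without colon replicate 1 or F4/80-high TAM replicate 2, and the 2 lower became 0 without either colon array and 1 without F4/80-high TAM replicate 1 or either spleen monocyte array. F10, which encodes coagulation factor X, read 8.72 and 10.26 in F4/80-high TAM, 6.50 and 6.14 in colon macrophages, 11.60 and 11.50 in Ly6C-high TAM and 11.04 and 10.95 in spleen monocytes (log2 difference 3.17 ± 0.45 SE, limma adjusted p = 0.00941). F7, which encodes factor VII, read 8.20 and 9.65 in F4/80-high TAM and 6.42 and 6.41 in colon macrophages (2.5 ± 0.50, adjusted p = 0.0251). The second F4/80-high TAM array was the higher one in both, and the call of F10 was lost without colon replicate 2 (adjusted p = 0.0585), while that of F7 was lost without any single array of colon macrophages or spleen monocytes or F4/80-high TAM replicate 2 (adjusted p up to 0.117).

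Among 36 integrins and adhesion genes 4 were higher and 2 lower (11.1% and 5.56%, against 2.67% and 3.72% of all genes), with a median of -0.11. The 4 became 2 without colon replicate 1. The 2 lower became 0 without F4/80-high TAM replicate 1 or colon replicate 2, 1 without colon replicate 1 or either spleen monocyte array and 4 without either Ly6C-high TAM array. Emilin2, an extracellular glycoprotein, read 11.11 and 11.22 in F4/80-high TAM and 9.53 and 9.58 in colon macrophages (1.61 ± 0.12, adjusted p = 0.00156), with spleen monocytes at 12.04 and 12.09. For Emilin2 the order was spleen monocytes, Ly6C-high TAM (11.89 and 11.74), F4/80-high TAM and colon macrophages, and the arrays of the 4 populations did not overlap.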
